A study of Mus musculus with 10 samples.

Results

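The calcium cycle of the sarcoplasmic reticulum was followed through 10 genes chosen by name: Atp2a2, Pln, Sln, Ryr2, Casq1, Casq2, Trdn, Slc8a1, Jph2 and Camk2d. All 10 were found by Ensembl identifier among the 55335 genes of the table. RNA-seq had been made from heart tissue of wild-type male mice whose dams received anti-Müllerian hormone (prenatal AMH, abbreviated PAMH) or vehicle (PBS) during pregnancy, with 5 control and 5 PAMH samples. Prenatal AMH exposure is used in mice as a model of polycystic ovary syndrome, and the comparison asks which genes of the offspring's heart differ after it. The 2 groups share the genotype and the sex. The labels name the dams' treatment and number the samples, but give no dose, age or litter and do not say that each sample is a separate mouse. The p-values below therefore refer to the spread among these 10 samples, part of which may be technical.

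In each heartbeat calcium leaves the sarcoplasmic reticulum, the internal calcium store of the muscle cell, through the ryanodine receptor, and it is returned by the SERCA pump while the sodium-calcium exchanger removes the rest from the cell. Calsequestrin buffers calcium inside the store, triadin ties it to the release channel, and junctophilin holds the store against the transverse tubule where the channel is triggered. Phospholamban slows the pump until it is phosphorylated by protein kinase A or by calcium/calmodulin-dependent kinase II. Loss of pump activity and leak through the release channel are well-known features of failing hearts.

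Levels are given in FPKM, the fragments of a gene per kilobase of its exons, scaled to the sequencing depth. Sample sums ran from 654350 to 717453 FPKM. Low values of genes with 1 transcript fell in steps, and the step for 1 fragment implied a depth of about 15800000 fragments in PAMH replicate 1, the shallowest, and 26600000 in control replicate 1, the deepest. Implied depth was 18800000 to 26600000 in control and 15800000 to 20100000 in PAMH samples, with PAMH replicates 1, 4 and 5 below all controls. The part of depth in the results was not tested. PAMH replicate 4 had the fewest genes above 0 (16113, against 18037 to 21097 in the others) and the most hemoglobin RNA (859 FPKM, against 97.1 to 436 FPKM), and PAMH replicate 5 had the next fewest genes. Genes with over 10000 bases of exon had a median log2 deviation of -0.125 from the control mean in PAMH replicate 4 and of -0.056 in PAMH replicate 5, against -0.049 to 0.085 in the other 8 samples. The 8 cardiomyocyte markers were all present, with a summed level of 11163 to 14295 FPKM in control and 11416 to 15101 FPKM in PAMH samples. Of 12 atrial markers 6 stayed under 1 FPKM in every sample, and the defining atrial light chain genes were low: Myl7 was listed at 0 in all 5 control and 3 PAMH samples and had 1.02 and 0.962 FPKM in PAMH replicates 3 and 5, and Myl4 did not exceed 0.306 FPKM. The summed atrial level, most of it Nppa, was 66.3 to 149 FPKM in control and 104 to 241 FPKM in PAMH samples, and its part in the results was not tested. Of 13 skeletal muscle markers 10 stayed under 1 FPKM.

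None of the 9 members that could be tested passed the threshold between PAMH and control hearts (limma, adjusted p from 0.118 to 0.924). Of all 9439 tested genes 6.19% passed. At an unadjusted p under 0.05 limma gave 4 of the 9 (Slc8a1, Ryr2, Jph2 and Pln), where the share of all tested genes was 24.0%. The members' log2 fold changes lay between -0.23 (Ryr2) and 0.28 (Slc8a1), with 5 positive and 4 negative and a median of 0.11 beside 0.07 for all tested genes. No member had PAMH values that were all above or all below the control values, against 8.44% of tested genes (6.74% with the PAMH values higher). The tenth member, Sln, was below the filter of a mean of 1 FPKM. In whole tissue, fewer cells of a type and less RNA per cell cannot be told apart.

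By mean level over the 10 samples Atp2a2 stood far above the rest (1342 FPKM), followed by Casq2 (222 FPKM), Pln (188 FPKM), Jph2 (103 FPKM), Ryr2 (27.1 FPKM), Slc8a1 (11.7 FPKM), Trdn (10.5 FPKM), Casq1 (1.88 FPKM), Camk2d (1.84 FPKM) and Sln (0.00394 FPKM). Casq2 and Pln overlapped in their values over the 10 samples, as did Slc8a1 with Trdn and Casq1 with Camk2d. These levels are per length of all annotated exons of a gene. Camk2d has 28 annotated transcripts with 22493 bases of exon between them, while its longest transcript has 5524 bases, and Ryr2 has 28790 against 16814 bases, so the level of a gene with many transcripts can be understated beside that of Pln or Jph2.

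**Figure D1:**
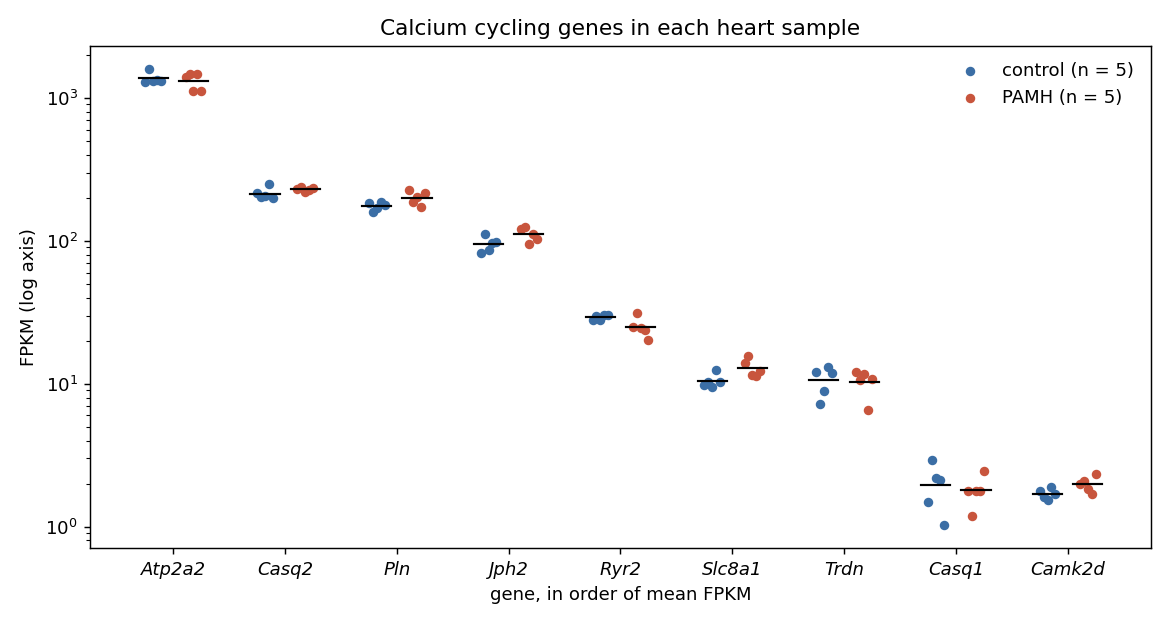
FPKM of 9 calcium cycling genes (log axis) in each control (blue) and PAMH (red) sample, with the group mean as a black line; Sln is left out because it was listed at 0 in 9 samples. The groups overlap for every gene shown, from Atp2a2 at 1110 to 1599 FPKM down to Camk2d at 1.52 to 2.35 FPKM.

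The pump gene Atp2a2 (SERCA2; chromosome 5, 122453513 to 122502225, minus strand, build GRCm38) had 1289, 1599, 1314, 1335 and 1316 FPKM in control replicates 1 to 5 and 1409, 1458, 1110, 1478 and 1111 FPKM in PAMH replicates 1 to 5. PAMH replicates 3 and 5 lay below all controls, while the other 3 PAMH samples lay between the 4 lower controls and control replicate 2. The mean was 1371 ± 129 in control and 1313 ± 187 FPKM in PAMH hearts (SD, n = 5 each; log2 fold change -0.07, SE 0.10, limma adjusted p = 0.713). The 95% interval of the fold ran from 0.820 to 1.11.

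Phospholamban and sarcolipin are small membrane peptides that bind the pump and inhibit it, and DWORF, encoded by Strit1, counters them. Their whole reading frames are short enough to be shown, from GENCODE vM21, 5′ to 3′, because the 3 genes were found at very different levels. In Pln the capitals mark codons 16 and 17, which encode the serine and the threonine phosphorylated by protein kinase A and by the calmodulin-dependent kinase; in the other 2 genes they mark the stop codon.
Pln (chr10:53343864-53344022, plus strand, 52 codons): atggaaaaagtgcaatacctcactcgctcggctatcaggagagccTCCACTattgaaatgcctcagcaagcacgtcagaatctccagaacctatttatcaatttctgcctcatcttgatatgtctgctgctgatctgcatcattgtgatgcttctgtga
Sln (chr9:53853473-53853568, plus strand, 31 codons): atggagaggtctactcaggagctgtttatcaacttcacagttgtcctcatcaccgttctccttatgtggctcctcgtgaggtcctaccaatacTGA
Strit1 (chr3:63481290-63483827, minus strand, 34 codons): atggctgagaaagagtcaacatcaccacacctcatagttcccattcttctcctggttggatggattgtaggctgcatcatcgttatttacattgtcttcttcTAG

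Pln had 184, 160, 169, 188 and 177 FPKM in control replicates 1 to 5 and 227, 185, 204, 173 and 214 FPKM in PAMH replicates 1 to 5. PAMH replicates 1, 3 and 5 lay above all controls and PAMH replicates 2 and 4 among them. The means of 176 ± 11.4 and 201 ± 21.9 FPKM (SD, n = 5 each) gave a log2 fold change of 0.19 (SE 0.08, limma adjusted p = 0.194). The interval of the fold ran from 1.0 to 1.29. Pln shares 141 exon bases with Cep85l and 1644 with Gm47644, both on the opposite strand and at means of 1.07 and 1.95 FPKM, and reads of the shared bases cannot be assigned without knowing whether counting used strand.

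Sln was listed at 0 in all 5 PAMH samples and in control replicates 1 to 4, and at 0.0394 FPKM in control replicate 5. That value equals 0.98 of the step of 1 fragment in that sample. Sln is known as an atrial gene in the mouse, and the atrial Myl7 was likewise listed at 0 in 8 of the 10 samples. The samples with a value differed: PAMH replicates 3 and 5, with Myl7 at 1.02 and 0.962 FPKM, had Sln at 0. Control replicate 5 had Myl7 at 0. The part of atrial tissue in the level of Sln was not tested. Strit1 had 21.1 ± 2.37 FPKM in control and 18.1 ± 5.38 FPKM in PAMH hearts (log2 fold change -0.25, SE 0.16, limma adjusted p = 0.370), from 53.9 to 131 implied fragments per sample. Its PAMH values of 14.1, 18, 19.5, 26.3 and 12.6 FPKM spanned the control range of 19.0 to 25 FPKM on both sides. The paralogues of the pump gene were far lower than Atp2a2, Atp2a1 at up to 0.175 FPKM and Atp2a3 at 0.755 to 1.49 FPKM.

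The release channel gene Ryr2 (chromosome 13, 11553102 to 12106945, minus strand) had 28.0, 30.0, 28.1, 30.3 and 30.1 FPKM in control replicates 1 to 5 and 25.1, 31.1, 24.6, 23.8 and 20.2 FPKM in PAMH replicates 1 to 5. Of the PAMH samples 4 lay below all controls, and PAMH replicate 2 lay above all controls. The mean was 29.3 ± 1.16 in control and 25 ± 3.94 FPKM in PAMH hearts (SD, n = 5 each; log2 fold change -0.23, SE 0.10, limma adjusted p = 0.161). Without PAMH replicate 2 the change was -0.31 and passed (limma adjusted p = 0.0470). Ryr2 has one of the longest messages of the heart. Genes with over 10000 bases of exon had median log2 deviations of -0.125 and -0.056 in PAMH replicates 4 and 5. In PAMH replicates 1 and 3, where Ryr2 also lay below all controls, these were 0.038 and 0.017. Without PAMH replicates 4 and 5, which had the lowest Ryr2 values, its change was -0.12. With each sample's trend on transcript length removed it was -0.09. Whether transcript length plays a part was not tested. The coefficient of variation of Ryr2 was 3.94% in control and 15.8% in PAMH samples. Ryr1 and Ryr3 were listed at no more than 0.0165 and 0.0983 FPKM.

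None of the buffer genes and the channel's partner passed the test. Casq2, the cardiac calsequestrin gene, had 216, 201, 205, 248 and 201 FPKM in control replicates 1 to 5 and 230, 238, 221, 226 and 235 FPKM in PAMH replicates 1 to 5. All PAMH values lay above 4 of the 5 controls and below control replicate 4. The log2 fold change was 0.11 (SE 0.07, limma adjusted p = 0.374), and it was -0.01 with quantile normalization. The spread of Casq2 was 19.9 FPKM in control and 6.64 FPKM in PAMH samples (SD, n = 5 each). Casq1, the calsequestrin of skeletal muscle, had 1.49, 2.94, 2.2, 2.14 and 1.02 FPKM in control and 1.78, 1.19, 1.78, 1.78 and 2.45 FPKM in PAMH samples. Control replicates 2 and 5 were the highest and the lowest of all 10, and between 37.5 and 124 implied fragments stood behind each value. Its log2 fold change was -0.06 (SE 0.17, limma adjusted p = 0.863), and the sign turned without control replicate 2 (0.05) or PAMH replicate 2 (0.03). The low skeletal muscle markers above, with a summed level of 1.95 to 2.88 FPKM in control and 2.37 to 3.63 FPKM in PAMH samples, stand beside it.

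Trdn, which encodes triadin, had 12.0, 7.22, 8.93, 13.2 and 11.9 FPKM in control replicates 1 to 5 and 12.2, 10.6, 11.7, 6.55 and 10.8 FPKM in PAMH replicates 1 to 5. PAMH replicate 4 was the lowest sample and control replicate 2 the next lowest. The log2 fold change was -0.04 (SE 0.17, limma adjusted p = 0.924) and its sign turned without PAMH replicate 4 (0.105), without control replicate 1, 4 or 5 (0.01, 0.04 and 0.01), with sample weights (0.01) and after scaling all samples to 1 total (0.01). Its 95% interval from -0.42 to 0.34 was with that of Casq1 the widest among the members.

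Jph2, which encodes junctophilin 2, had 81.9, 112, 86.6, 96.3 and 97.5 FPKM in control replicates 1 to 5 and 121, 126, 94.8, 111 and 104 FPKM in PAMH replicates 1 to 5. PAMH replicates 1 and 2 lay above all controls, and the other 3 PAMH samples lay among the controls. The means were 94.8 ± 11.5 FPKM in control and 111 ± 12.5 FPKM in PAMH hearts (SD, n = 5 each), a log2 fold change of 0.23 (SE 0.10, limma adjusted p = 0.186), and the interval of the fold ran from 1.01 to 1.36. Jph1, the paralogue shared with skeletal muscle, had a log2 fold change of 0.03 (SE 0.07, limma adjusted p = 0.817; -0.04 with quantile normalization) at a mean of 3.25 FPKM in controls.

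Slc8a1, the sodium-calcium exchanger gene (NCX1; chromosome 17, 81373105 to 81738377, minus strand), had the largest log2 fold change of the members on the FPKM + 1 scale, but Ryr2 exceeded it in size with median ratio scaling (-0.33 against 0.19), with quantile normalization (-0.36 against 0.16) and without PAMH replicate 2 (-0.31 against 0.21), and Jph2 without control replicate 2 (0.29 against 0.27). It had 9.77, 10.3, 9.51, 12.4 and 10.3 FPKM in control replicates 1 to 5 and 13.9, 15.7, 11.4, 11.2 and 12.3 FPKM in PAMH replicates 1 to 5. Every PAMH value exceeded 4 of the 5 controls, and control replicate 4 lay among the PAMH values. The means were 10.4 ± 1.15 FPKM in control and 12.9 ± 1.89 FPKM in PAMH hearts (SD, n = 5 each), a log2 fold change of 0.28 (SE 0.10, limma adjusted p = 0.118), and the interval of the fold ran from 1.04 to 1.41. The gene passed with sample weights (log2 fold change 0.37, limma adjusted p = 0.0249) and with the trend on transcript length removed (0.43, limma adjusted p = 0.0200), and in none of the other 20 settings.

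Camk2d, the kinase gene whose product phosphorylates phospholamban and the release channel, had 1.77, 1.6, 1.52, 1.88 and 1.70 FPKM in control replicates 1 to 5 and 2.0, 2.08, 1.84, 1.69 and 2.35 FPKM in PAMH replicates 1 to 5. PAMH replicates 1, 2 and 5 lay above all controls. The log2 fold change was 0.15 (SE 0.08, limma adjusted p = 0.268). Camk2g, a sister kinase gene, had 2.99 ± 0.607 FPKM in control and 4.18 ± 1.26 FPKM in PAMH hearts (log2 fold change 0.35, SE 0.16, limma adjusted p = 0.199), and Camk2b, at up to 0.735 FPKM, was below the filter. PAMH replicates 2, 4 and 5 and control replicate 5 had 4.07 to 5.51 FPKM of Camk2g, and the other 6 samples 2.60 to 2.94 FPKM.

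**Figure D2:**
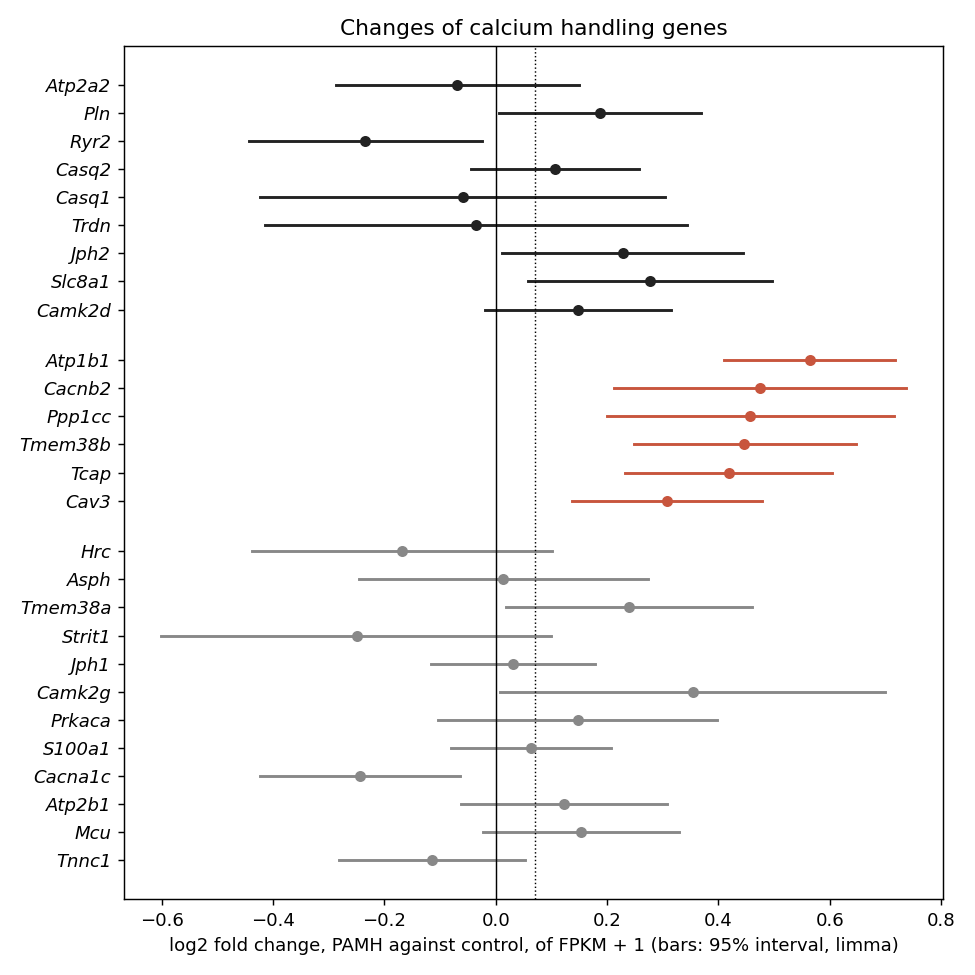
Log2 fold change of PAMH against control hearts on the FPKM + 1 scale with its 95% interval (limma, 5 samples a group) for 9 calcium cycling genes (black), 6 other calcium handling genes that passed the test (red) and 12 genes of a chosen panel that did not (grey). The solid line is at 0 and the dotted line at 0.07, the median of all 9439 tested genes; the black intervals all end below 0.5, and Atp1b1 lies farthest right at 0.56.

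Ratios between members within a sample do not depend on how the sample was scaled. They were compared for 8 pairs by exact 2-sided permutation tests over all arrangements of the 10 samples, for which the smallest p is 0.00794, with adjustment over the 8. Relative to Ryr2, Jph2 and Camk2d were higher in every PAMH than in every control sample. The Jph2 to Ryr2 ratio was 2.93, 3.72, 3.08, 3.18 and 3.24 in control replicates 1 to 5 and 4.81, 4.04, 3.86, 4.65 and 5.13 in PAMH replicates 1 to 5, a rise of 0.47 on the log2 scale (exact permutation p = 0.00794, adjusted p = 0.0317). The groups did not overlap, although control replicate 2 and PAMH replicate 3 came close. The Camk2d to Ryr2 ratio was 0.0534 to 0.0632 in control and 0.0669 to 0.117 in PAMH samples, also a rise of 0.47 with the same exact permutation p and adjusted p. PAMH replicate 5 was the highest, at 0.117, with the other 4 PAMH samples at 0.0669 to 0.0795. Such a separation is common with this denominator: of 9408 tested genes with no value at 0, the ratio to Ryr2 was higher in every PAMH than in every control sample for 17.2%.

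The Casq2 to Ryr2 ratio was 6.66 to 8.19 in control and 7.64 to 11.6 in PAMH samples, and the Slc8a1 to Atp2a2 ratio, which sets the 2 routes of calcium removal side by side, was 0.00643 to 0.00931 in control and 0.00760 to 0.0111 in PAMH samples. Each rose, by 0.35 and 0.37 on the log2 scale (exact permutation p = 0.0238 and adjusted p = 0.0476 for both), with 4 of 5 PAMH samples above all controls. An exact permutation p this small with a rise was reached by 30.7% of 9408 genes over Ryr2 and by 16.8% over Atp2a2, and 9.99% of genes over Atp2a2 were higher in every PAMH than in every control sample. The ratio of Pln to Atp2a2, inhibitor to pump, was 0.10 to 0.143 in control and 0.117 to 0.193 in PAMH samples (log2 difference 0.26, exact permutation p = 0.175, adjusted p = 0.279). PAMH replicates 1, 3 and 5 lay above all controls, and the same holds for the Trdn to Ryr2 ratio (log2 difference 0.20, exact permutation p = 0.429, adjusted p = 0.571). The Casq1 to Casq2 ratio had a log2 difference of -0.18 (exact permutation p = 0.611, adjusted p = 0.698), and the Sln to Atp2a2 ratio carries no information with Sln at 0. With the trend on transcript length removed none of the 4 rises kept an adjusted p under 0.05: those of Jph2, Camk2d and Casq2 to Ryr2 were 0.35, 0.38 and 0.18 and that of Slc8a1 to Atp2a2 was 0.46 (exact permutation, adjusted p = 0.0635, 0.0635, 0.286 and 0.0635). The rises of Jph2 and Camk2d to Ryr2 had an adjusted p of 0.0635 (exact permutation) without any of control replicates 1, 2, 3 and 5 or PAMH replicates 1 and 5. Both ratios still separated the groups there, with rises of 0.424 to 0.526 and 0.334 to 0.534 over all single omissions. The higher p does not by itself show a smaller rise. Over all settings the lowest adjusted p was 0.0212 for both ratios (exact permutation). Leaving out 1 sample, that of Casq2 to Ryr2 stayed under 0.05 only without control replicate 4 or PAMH replicate 2 (0.0476 and 0.0212, exact permutation), and that of Slc8a1 to Atp2a2 only without control replicate 4 or PAMH replicate 4 (0.0476 and 0.0423, exact permutation).

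**Figure D3:**
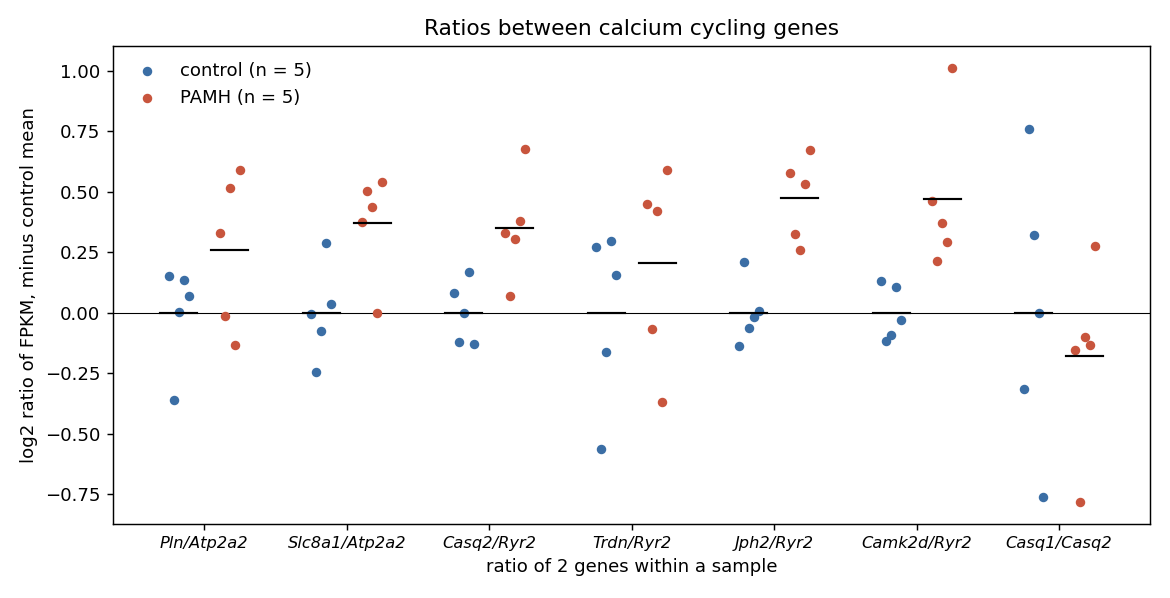
Log2 ratio of the FPKM of 2 calcium cycling genes within each control (blue) and PAMH (red) sample, minus the control mean of that ratio; black lines are group means. The Jph2 to Ryr2 and Camk2d to Ryr2 ratios separate the groups, with mean rises of 0.47, and the other 5 overlap.

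Among 69 other tested genes of calcium handling, from 6 lists, 6 were higher and none was lower, and 63 did not pass (limma; 20 passed at an unadjusted p under 0.05). Of all tested genes 4.95% were higher and 1.24% lower, and 24.0% had an unadjusted p under 0.05 (limma). Of 14 tested genes of the surface membrane and transverse tubule 4 were higher. Atp1b1, the beta subunit of the sodium pump that sets the gradient for the exchanger, had 51.6, 55.3, 47.1, 51.0 and 50.1 FPKM in control replicates 1 to 5 and 76.9, 78.5, 66.7, 79.0 and 78.6 FPKM in PAMH replicates 1 to 5. The groups did not overlap (log2 fold change 0.56, SE 0.07, limma adjusted p = 0.00159). Tcap, which encodes the titin cap protein telethonin, rose from 483 ± 62.9 to 642 ± 24.2 FPKM (SD, n = 5 each; limma adjusted p = 0.0158), and Cav3, the muscle caveolin gene, from 30.6 ± 1.39 to 38.3 ± 4.02 FPKM (limma adjusted p = 0.0390), both without overlap. Cacnb2, a beta subunit of the voltage-gated calcium channel, rose from 1.76 ± 0.199 to 2.88 ± 0.689 FPKM (limma adjusted p = 0.0390), with PAMH replicate 4 at 1.80 FPKM among the controls. The pore subunit gene of that channel, Cacna1c, was at 5.39 ± 0.377 and 4.41 ± 0.538 FPKM (log2 fold change -0.24, SE 0.08, limma adjusted p = 0.0973), with 4 of 5 PAMH samples below all controls. Cacna1c passed as lower with median ratio scaling (-0.33, limma adjusted p = 0.0403) and with quantile normalization (-0.33, limma adjusted p = 0.0353).

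Of 13 tested partners in the reticulum and its junction 1 was higher. This was Tmem38b, which encodes TRIC-B, a potassium channel of the reticulum that balances charge during calcium release. It had 5.92, 5.51, 4.95, 5.69 and 5.05 FPKM in control and 8.57, 7.05, 6.84, 7.13 and 9.40 FPKM in PAMH replicates 1 to 5, with no overlap (log2 fold change 0.45, SE 0.09, limma adjusted p = 0.0158). The sister channel gene Tmem38a, at a far higher level, had 145 ± 14.7 and 172 ± 23.8 FPKM (log2 fold change 0.24, SE 0.10, limma adjusted p = 0.177). Hrc, another calcium buffer of the reticulum, had 260 ± 30.1 and 234 ± 41.9 FPKM and passed as lower with quantile normalization (log2 fold change -0.30, limma adjusted p = 0.0480), and Asph, whose locus encodes junctin, 8.42 ± 0.716 and 8.62 ± 1.64 FPKM. The channel-stabilising protein gene Fkbp1b was below the filter, at up to 0.662 FPKM.

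Of 22 tested kinase, phosphatase and calcium sensor genes 1 was higher: Ppp1cc, a catalytic subunit of protein phosphatase 1, which removes phosphate from phospholamban, rose by 0.46 on the log2 scale (SE 0.12, limma adjusted p = 0.0410), with 12.2 ± 1.66 FPKM in control and 17.1 ± 2.62 FPKM in PAMH hearts. PAMH replicate 2, at 12.6 FPKM, lay among the controls. Prkaca, the catalytic subunit of protein kinase A, and S100a1, a calcium sensor that binds the pump and the channel, had log2 fold changes of 0.15 and 0.06 (limma adjusted p = 0.469 and 0.597), and that of S100a1 was -0.10 with quantile normalization. Ppp1r1a, the phosphatase inhibitor 1 gene, was below the filter. None of 10 mitochondrial calcium genes, 8 myofilament genes or 2 tested paralogues passed in limma. An unadjusted p under 0.05 was reached by 2, 1 and 1 of them, beside 24.0% of all tested genes (limma). Mcu, the mitochondrial calcium uniporter, Tnnc1, the calcium-binding troponin, and Atp2b1, a surface calcium pump, had log2 fold changes of 0.15, -0.11 and 0.12.

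The count of called genes depended on the samples used. It was 3 without any of control replicates 3, 4 and 5 or PAMH replicates 1 and 5 and 13 without PAMH replicate 3. Atp1b1 and Tmem38b passed in all 22 other settings and Tcap in 18, while Cacnb2 passed in 10 of 21, Cav3 in 9 of 22 and Ppp1cc in 8 of 22.

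**Figure D4:**
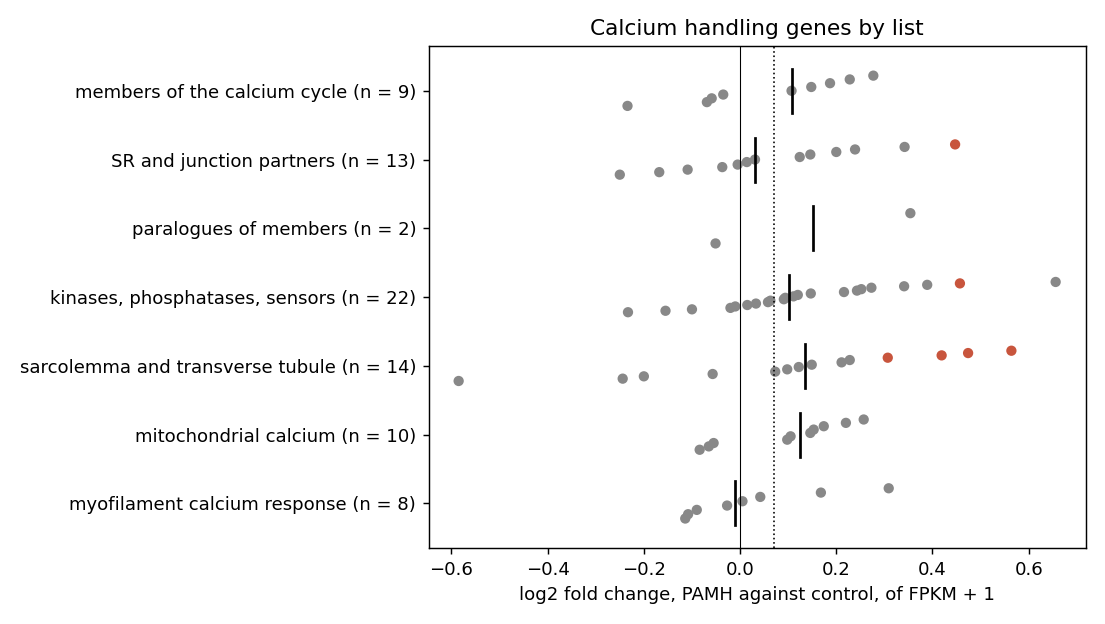
Log2 fold change of PAMH against control hearts on the FPKM + 1 scale for the tested genes of the calcium cycle and of 6 other lists, 1 point a gene, red where the limma adjusted p was under 0.05; short black lines are list medians and the dotted line is the median of all tested genes, 0.07. The 9 members of the cycle lie between -0.23 and 0.28 with no red point, and 4 of the 6 red points lie in the list of the surface membrane and transverse tubule.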

How the data were processed

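RNA-seq of heart tissue in 5 control and 5 PAMH samples of male mice was used, grouped and numbered by sample title. The authors deposited 1 table of FPKM for the whole series. The submitters' processing notes name build mm10, HISAT2 2.2.1 and HTSeq 0.13.5, with Trimmomatic 0.38, FastQC 0.11.9, DESeq2 1.18.1 and R 3.4.1, without saying which made the FPKM. Strand setting and annotation: not given in the sources used here. For 122 values of genes with several transcripts and at most 500 bases of exon, the product of value and exon length was in all 122 a whole multiple of the last decimal of a transcript FPKM (56.4 would be by chance), which is what a sum of transcript FPKM times transcript length over the union of exons gives. Exons that the heart does not use therefore count in a gene's length. Depth was read from the step of low values in genes with 1 transcript. Between 44.4% and 66.5% of 72 to 319 low values per sample lay within 0.05 of a whole number of steps, with the fewest in PAMH replicate 4, so whole reads were not recovered and no count test was run. Implied fragments are estimates from these steps.

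Symbols and coordinates came from GENCODE vM21 (GRCm38), which held 55154 of 55335 identifiers. Of 166 listed genes 164 were found, Strit1 under its RefSeq synonym Gm34302. FPKM were transformed as log2(FPKM + 1), so fold changes of low genes are understated. Genes whose mean reached 1 FPKM were tested with limma 3.58.1 in R 4.3.3 (group term, empirical Bayes with trend, Benjamini-Hochberg over 9439 genes, threshold 0.05), which was tested on simulated data. Ratios were tested by exact permutation, with 0.1 added where a value was 0. Named were the 10 members, every listed gene past the threshold, a chosen panel and the leading markers; others were named after their values were seen. Members, lists and tests were chosen with earlier results of these data known. Alternatives were another pseudocount, other filters and scalings, sample weights, robust estimation, a block for the replicate number, and fits without single samples. Removal of each sample's loess trend (span 0.5) on transcript length was added after seeing the data. Figures were drawn with matplotlib 3.10.9.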

Additional observations from a re-analysis of the deposited data

Results flagged for a closer look

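A sample that lay far from the other 4 of its group was looked for in the named genes and the ratios. In 81 groups of 5 there were 12. The limit used is passed by about 1 in 20 independent groups of normally distributed values. These groups share samples, and those of Sln and Ryr1 rest on few fragments, so no excess over chance can be read from the count. Among the members, control replicate 2 was high for Atp2a2 (1599 FPKM, against 1289 to 1335 FPKM), control replicate 4 for Slc8a1 (12.4 FPKM, against 9.51 to 10.3 FPKM) and control replicate 5 for Sln (0.0394 FPKM, the others listed at 0), and PAMH replicate 4 was low for Trdn (6.55 FPKM, against 10.6 to 12.2 FPKM). The Camk2d to Ryr2 ratio was high in PAMH replicate 5 (0.117, against 0.0669 to 0.0795).

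Among the other genes control replicate 2 was also high for Hrc (314 FPKM, against 242 to 252.5 FPKM), the calcium buffer that shares the reticulum with the pump. PAMH replicate 3 was low for Atp1b1 (66.7 FPKM, against 76.9 to 79.0 FPKM) and PAMH replicate 2 for Ppp1cc (12.6 FPKM, against 17.4 to 19.1 FPKM). Control replicate 5 was high for Camk2g (4.07 FPKM, against 2.60 to 2.81 FPKM) and Cacna1c (6.04 FPKM, against 5.10 to 5.31 FPKM), control replicate 3 low for Mcu (1.35 FPKM, against 1.58 to 1.61 FPKM), and control replicate 4 high for Ryr1 (0.0165 FPKM, others up to 0.00633 FPKM).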

How the results depend on the processing

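Sln had at most 1 implied fragment a sample, which gives it no usable level. Of the calcium cycling genes 0 were higher or lower in the other settings, except 1 higher, Slc8a1, with sample weights (log2 fold change 0.365) and with the length trend removed (0.429), and between 0 and 1 lower when samples were left out in turn (Ryr2, from -0.314 without PAMH replicate 2 to -0.164 without PAMH replicate 5). Of the other calcium handling genes 2 were higher without a filter, 2 with median ratio scaling (1 lower, Cacna1c), 11 with sample weights and 3 without PAMH replicates 4 and 5, quantile normalization gave 2 lower (Cacna1c and Hrc), and leaving out each sample gave 3 to 13 higher. Over all tested genes the calls higher and lower, 467 and 117, became 196 and 68 without a filter, 218 and 212 with median ratio scaling, 234 and 246 with quantile normalization, and 1038 and 176 with sample weights. There were 75 lower with the filter at 5 FPKM, 275 higher without PAMH replicates 4 and 5, and 202 to 979 higher and 66 to 147 lower with each sample left out. The median log2 fold change of all tested genes was 0.071, -0.004 with median ratio scaling and 0.109 with the same sum of FPKM. The causes were not tested.

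Signs turned for Trdn with the same sum (0.008), sample weights (0.010), without PAMH replicates 4 and 5 (0.124) and among samples left out in turn (-0.154 to 0.105, with 0.011, 0.043, 0.009 and 0.105 above 0). Casq2 turned with quantile normalization (-0.006), and Casq1 without control replicate 2 (0.054) or PAMH replicate 2 (0.025), with a lowest value of -0.187. With median ratio scaling and quantile normalization Asph became -0.074 and -0.089, Jph1 -0.045 and -0.037, and S100a1 -0.035 and -0.096. Asph was -0.001 without mitochondrial genome genes and -0.020, -0.033, -0.024 and -0.021 without control replicate 2 and PAMH replicates 1, 2 and 5, with a highest value of 0.132, and S100a1 was -0.019 without PAMH replicates 4 and 5. The Casq1 to Casq2 ratio was 0.012 without control replicate 2 and -0.369 without control replicate 5.

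Of the ratio rises, with the length trend removed that of Jph2 to Ryr2 became 0.354, of Camk2d to Ryr2 0.38, of Casq2 to Ryr2 0.181 and of Slc8a1 to Atp2a2 0.462, none below an adjusted p of 0.05. A pseudocount of 1 gave 0.341 for Casq2 to Ryr2 and 0.346 for Slc8a1 to Atp2a2, and omission of PAMH replicates 4 and 5 gave 0.233 for Casq2 to Ryr2. Leaving out each sample gave 0.424 to 0.526, 0.334 to 0.534, 0.269 to 0.421 and 0.309 to 0.463 in the order above.

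Same-numbered samples did not deviate together (correlations from -0.195 to 0.160). The labels do not say whether the numbers pair the samples, and low correlations cannot decide it. With the replicate number as a block 2 other calcium handling genes were higher, and over all tested genes 175 were higher and 64 lower. Within this pairing the ratio rises were 0.473, 0.470, 0.350 and 0.370, and none could pass, since an exact sign-flip test of 5 pairs cannot reach the threshold.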

Other observations

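Cacna2d1, an auxiliary subunit of the calcium channel named here after its values were seen, was at 1.58 and 2.83 FPKM in PAMH replicates 4 and 5 and at 6.47 to 8.37 FPKM in the other 8 samples (limma adjusted p = 0.254). Mrln, which encodes the pump inhibitor myoregulin of skeletal muscle, was listed at 0 in all 5 PAMH samples and at 0.0319 to 0.312 FPKM in the 5 controls, at most 8.5 implied fragments, and was below the filter. Some markers of several cell types were higher in PAMH hearts, while others of the same lists were not. Of all tested genes 4.95% were higher (limma), and for 6.74% the PAMH values were higher without overlap. Of 5 tested ventricular markers 3 were higher without overlap between the groups: the transcription factor gene Irx4 (4.89 ± 0.568 and 8.58 ± 1.5 FPKM; limma adjusted p = 0.00693), Fhl2 (445 ± 22.7 and 665 ± 64.5 FPKM; limma adjusted p = 0.00200) and Mlf1 (42.4 ± 3.25 and 52.7 ± 2.07 FPKM; limma adjusted p = 0.0205). Of 3 tested smooth muscle markers Acta2, smooth muscle actin, was higher (32.1 ± 5.95 and 82.5 ± 20.7 FPKM; limma adjusted p = 0.00223), and of 2 tested adipocyte markers Cidea (14.5 ± 1.01 and 20.5 ± 2.13 FPKM; limma adjusted p = 0.00918). The other tested adipocyte marker, Fabp4, went the opposite way (47.2 ± 9.42 FPKM in control and 34.3 ± 4.76 FPKM in PAMH hearts, log2 fold change -0.44). Fabp4 did not pass in limma, and 4 of 5 PAMH samples lay below all controls. The remaining 3 adipocyte markers stayed under 1 FPKM in every sample. Of 4 tested atrial markers Kcnj5, a potassium channel subunit gene, was higher in PAMH hearts (7.73 ± 0.599 and 10.7 ± 1.42 FPKM, SD, n = 5 each; limma adjusted p = 0.0224), while Nppa had 46.5 to 129 FPKM in control and 78.4 to 217 FPKM in PAMH samples and did not pass (limma adjusted p = 0.150).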
